A study of Arabidopsis thaliana with 24 samples.

Results

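The genes described here were 53 genes of cytosolic ribosomal proteins, the proteins that together with ribosomal RNA build the ribosome of the plant cytosol. They were chosen by locus identifier as genes for proteins of the large subunit (31 genes) or the small subunit (22 genes). This rule uses no measured value, but the genes were chosen with earlier results of these data known. All 53 were in the deposited table of 28775 genes, and all 53 passed the filter on low values. They were followed as a readout of growth across nitrate supply, day and genotype in RNAseq of Arabidopsis shoots. The 8 groups were *nrt1.13* and wild type (Col-0) plants of 25 days grown at 0.2 mM KNO3 or at 2 mM, and plants of 16 days of the same genotypes and supplies, with 3 plants in each group. All plants were grown in hydroponic culture, and those at 0.2 mM KNO3 were supplied with KCl to make up the potassium. The mutant *nrt1.13* is 1 T-DNA line (SAIL_258_H05), and the gene it disrupts, *NRT1.13*, belongs to the NRT1 family of nitrate transporters. The study found no nitrate transport by its protein in oocytes, and proposes that the protein may monitor nitrate levels in the xylem. Each library was made from the polyadenylated RNA of a single plant, and the sources count the days sometimes from germination and sometimes from sowing.

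A ribosome of the plant cytosol holds a small subunit, which binds the mRNA and decodes it, and a large subunit, which joins the amino acids. Arabidopsis encodes most of its ribosomal proteins by small families of near-identical genes, and their mRNAs are abundant in growing tissue, where new cells need new ribosomes. In plants, as in yeast and animals, the kinase TOR couples nutrient supply to the making of ribosomes, and the small subunit protein S6 is phosphorylated downstream of it by S6 kinase. The values here are mRNA levels, and neither protein nor translation was measured.

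The libraries held 23608279 to 46155689 reads, with a median of 35030938. The authors gave the reads on each gene as CPM, a value relative to library size with a further scaling, since libraries differ in their sum of CPM, and the kind of that scaling is not given in the sources used here. Fold changes (FC) are on the log2(CPM + 0.1) scale with the standard error of the limma fit. Genes were called higher or lower where *P*, adjusted by the method of Benjamini and Hochberg across the 15108 genes tested, did not exceed 0.05. The transcript of *NRT1.13* was at 2.19 to 4.65 CPM in the 12 *nrt1.13* plants and at 7.07 to 10.2 CPM in the 12 wild-type plants, without overlap. Markers of the shoot were high, with 9 genes of the photosynthetic apparatus summing to 59898 to 75059 CPM in *nrt1.13* and 61588 to 71090.3 CPM in wild type. All 8 root markers were under the filter, and their sum was at most 2.49 CPM in any plant. Because whole shoots were sampled, more RNA of these genes per cell and more cells rich in them cannot be told apart.

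The 53 genes stood apart in the plants grown for 25 days at 0.2 mM KNO3. Their summed level was 30964, 32400.0 and 34556 CPM in the *nrt1.13* plants and 34186, 31673 and 34551 CPM in the wild-type plants of this condition. At 2 mM and 25 days it was 20821, 19621 and 19897 CPM in *nrt1.13* and 19753, 21040.0 and 20422 CPM in wild type. At 16 days the sum was 19076, 18237 and 19156 CPM in *nrt1.13* and 17190.0, 16665 and 18822 CPM in wild type at 0.2 mM, against 18093, 19092 and 17623 CPM in *nrt1.13* and 19261, 21639 and 19915 CPM in wild type at 2 mM. Every plant at 25 days and 0.2 mM was thus above every plant of the other 6 groups, which spanned 16665 to 21639 CPM. The same held gene by gene, with the 6 plants of this condition above the 18 others for 53 of the 53 genes, and for 8.89% of all 15108 genes tested. As a share of all CPM, the 53 genes took 3.25 ± 0.162% in *nrt1.13* and 3.36 ± 0.195% in wild type at 25 days and 0.2 mM (SD, n = 3 each), against 2.00 ± 0.0351% and 2.05 ± 0.0691% in the same genotypes at 2 mM. Together with 152 further genes annotated as cytosolic ribosomal proteins, they took 7.23 ± 0.446% in *nrt1.13* and 7.47 ± 0.452% in wild type at 25 days and 0.2 mM, against 4.52 ± 0.0667% in *nrt1.13* and 4.64 ± 0.169% in wild type at 2 mM. These sums are descriptions and were not tested.

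**Figure D1:**
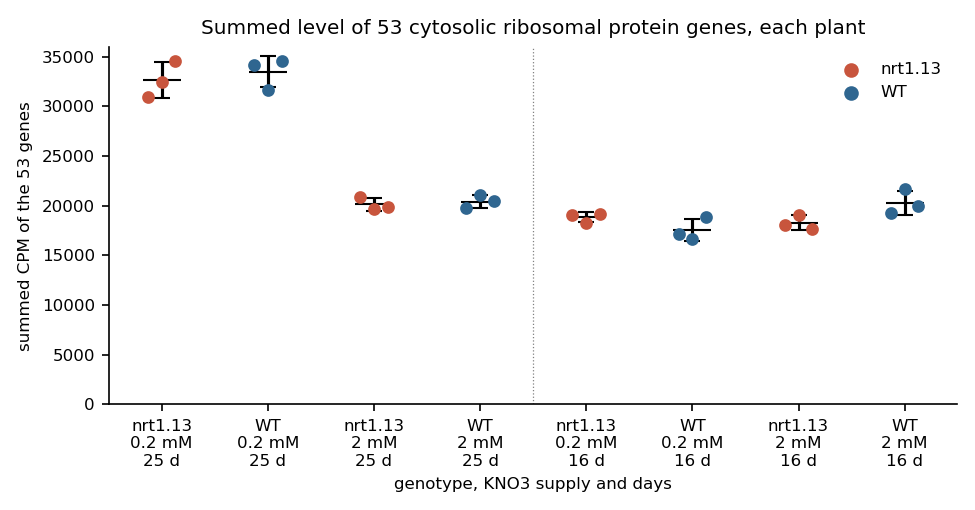
Summed CPM of the 53 cytosolic ribosomal protein genes in each plant (points), with the mean and SD of the 3 plants of a group (bar and whiskers), by genotype, KNO3 supply and days. The 6 plants at 0.2 mM and 25 days sit above all 18 others.

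The comparison of 0.2 with 2 mM KNO3 asks how the nitrate supply bears on these genes. At 25 days all 53 rose at 0.2 mM in *nrt1.13*, where 19.1% of all genes tested were called higher, and all 53 rose in wild type, where 18.9% were. The median log2 FC was 0.68 in *nrt1.13* and 0.70 in wild type, about 1.60-fold and 1.62-fold, against medians of 0.00 and 0.01 over all genes tested in the same genotypes. In each genotype the 3 plants at 0.2 mM were above the 3 plants at 2 mM for all 53 genes. Over all genes tested, 22.4% separated this way in *nrt1.13* and 26.3% in wild type. The log2 FC ran from 0.46 to 1.43 in *nrt1.13* and from 0.48 to 1.503 in wild type, with an SD among the 53 genes of 0.15 and 0.15. Few genes met the criteria of the study, an FC of at least 1.8 with an unadjusted *P* of at most 0.05. By these, 4 genes were higher in *nrt1.13* (0.589% of all genes tested) and 4 in wild type (0.463%). *AT2G40010*, *AT3G09200* and *AT1G15930* met them in both genotypes, *RPL23AB* in *nrt1.13* and *AT1G70600* in wild type.

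The largest differences were in a pair of genes for acidic proteins of the L10 family, the kind of protein that carries the stalk of the large subunit to which elongation factors bind. At 25 days, *AT2G40010* had 36.2, 34.7 and 39.2 CPM in *nrt1.13* and 35.1, 35.9 and 43.7 CPM in wild type at 0.2 mM, against 15.4, 13.04 and 12.3 CPM in *nrt1.13* and 11.3, 14.7 and 14.3 CPM in wild type at 2 mM. At 16 days, *AT2G40010* had 9.96, 10.1 and 11.2 CPM in *nrt1.13* and 7.47, 8.99 and 10.1 CPM in wild type at 0.2 mM, against 9.75, 11.5 and 11.3 CPM in *nrt1.13* and 13.7, 15.5 and 11.2 CPM in wild type at 2 mM. The plants at 25 days and 0.2 mM held the highest values in both genotypes, without overlap with any other group. The log2 FC of 0.2 against 2 mM at 25 days was 1.43 ± 0.13 in *nrt1.13* (limma, adjusted *P* = 2.22e-09) and 1.503 ± 0.13 in wild type (adjusted *P* = 8.08e-10). This gene had by far the lowest level of the 53, with a mean of 18.2 CPM, and 37.4% of the 75-base stretches of its transcript occur elsewhere in the genome, so its count of uniquely mapped reads is uncertain. At 25 days, *AT3G09200* had 1419, 1508 and 1546 CPM in *nrt1.13* and 1588, 1521 and 1709.5 CPM in wild type at 0.2 mM, against 789.9, 738 and 749.7 CPM in *nrt1.13* and 779, 814 and 774 CPM in wild type at 2 mM. At 16 days, *AT3G09200* had 674, 652 and 709 CPM in *nrt1.13* and 647, 598 and 680.0 CPM in wild type at 0.2 mM, against 710.1, 721 and 682 CPM in *nrt1.13* and 792, 852 and 782 CPM in wild type at 2 mM. The groups split in the same way for this abundant gene, with a log2 FC at 25 days of 0.97 ± 0.06 in *nrt1.13* and 1.02 ± 0.06 in wild type (limma, adjusted *P* = 1.43e-11 and 4.78e-12).

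The other genes with the largest nitrate difference averaged over both days and genotypes were a small subunit gene and 2 large subunit genes. The S12e gene *AT1G15930* at 25 days had 278, 290.2 and 349 CPM in *nrt1.13* and 297, 293 and 329.9 CPM in wild type at 0.2 mM, against 170.1, 161 and 173 CPM in *nrt1.13* and 166, 167 and 165 CPM in wild type at 2 mM. At 16 days, *AT1G15930* had 188, 175 and 203 CPM in *nrt1.13* and 178, 181 and 182 CPM in wild type at 0.2 mM, against 164, 179.7 and 159 CPM in *nrt1.13* and 171, 193 and 188 CPM in wild type at 2 mM. It had a log2 FC averaged over the 4 conditions of 0.47 ± 0.04 (limma, adjusted *P* = 1.55e-10). The L21e gene *AT1G09590* at 25 days had 392, 440.1 and 524 CPM in *nrt1.13* and 452, 416 and 503 CPM in wild type at 0.2 mM, against 271, 254 and 261 CPM in *nrt1.13* and 253, 252 and 259.9 CPM in wild type at 2 mM. At 16 days, *AT1G09590* had 283, 261 and 300.02 CPM in *nrt1.13* and 245, 251 and 279.7 CPM in wild type at 0.2 mM, against 249, 257 and 233 CPM in *nrt1.13* and 252, 299 and 284 CPM in wild type at 2 mM. Its averaged log2 FC was 0.42 ± 0.04 (limma, adjusted *P* = 1.34e-08). The L37e gene *AT1G52300* at 25 days had 481, 515 and 668 CPM in *nrt1.13* and 546, 523 and 597 CPM in wild type at 0.2 mM, against 361, 334 and 353 CPM in *nrt1.13* and 324, 356 and 345 CPM in wild type at 2 mM. At 16 days, *AT1G52300* had 406, 364 and 449.5 CPM in *nrt1.13* and 358, 383 and 391 CPM in wild type at 0.2 mM, against 329, 361 and 307 CPM in *nrt1.13* and 331, 384 and 382 CPM in wild type at 2 mM. With 0.42 ± 0.05 (limma, adjusted *P* = 6.41e-08) it showed the same averaged direction, while the supplies overlapped in wild type at 16 days. In the average over both days and genotypes, all 53 genes were called higher at 0.2 mM (21.6% of all genes tested), with a median log2 FC of 0.31 against 0.01 over all genes tested, and 0 had an FC of 1.8 (0.0265% of all genes tested did).

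At 16 days fewer genes passed. In *nrt1.13*, limma called 0 of the 53 genes in either direction, with 9 at an unadjusted *P* under 0.05, and edgeR called 0 and DESeq2 1, where 1.73% of all genes tested were called higher and 1.10% lower by limma. The median log2 FC was 0.04. In wild type, 24 of the 53 genes fell at 0.2 mM, 0 rose and 29 did not pass, where 3.06% of all genes tested were called lower and 3.14% higher. Here the median log2 FC was -0.22, against 0.01 over all genes tested, and 0 met an FC of 1.8 (0.0662% of all genes tested). For 34 of the 53 genes the 3 wild-type plants at 0.2 mM were all below the 3 at 2 mM (11.9% of all genes tested). The strongest differences were those of *AT2G40010* (-0.60 ± 0.13 log2), of the S5 gene *RPS5B* (-0.57 ± 0.08) and of *RPL3A* (-0.37 ± 0.09). The count rested on single plants, and was 3 without wild type replicate 2 at 2 mM, 4 without replicate 2 at 0.2 mM, 13 without replicate 1 at 2 mM and 14 without replicate 1 at 0.2 mM. When the nitrate effects of the 2 genotypes at 16 days were compared directly, a comparison chosen after seeing the data, 0 of the 53 genes passed by limma and by edgeR and 2 by DESeq2, with 38 at an unadjusted *P* under 0.05 and a median difference of 0.25. Limma called 0% of all genes tested in that comparison, so the effects at 16 days are not shown to differ between *nrt1.13* and wild type.

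**Figure D2:**
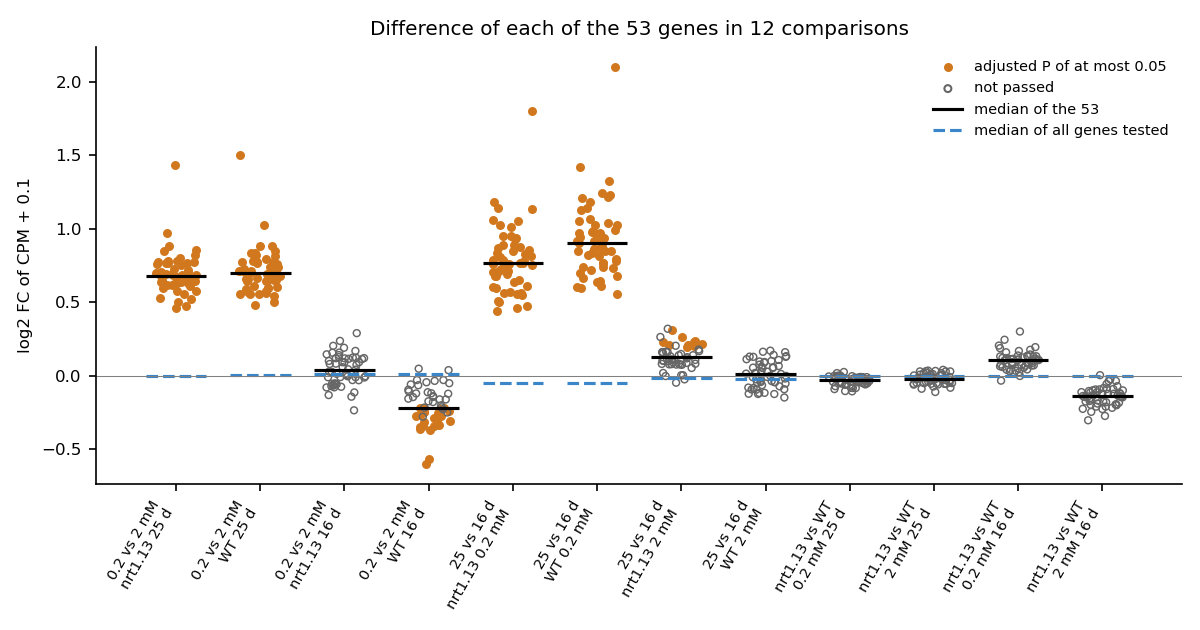
Log2 FC of each of the 53 genes (points, filled where the adjusted P is at most 0.05) in the 4 nitrate, 4 day and 4 genotype comparisons, with the median of the 53 genes (solid line) and of all 15108 genes tested (dashed line). All 53 are filled in both nitrate comparisons at 25 days and in both day comparisons at 0.2 mM, and none in the genotype comparisons.

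The comparison of 25 with 16 days followed the same division by supply. At 0.2 mM all 53 genes rose in *nrt1.13* (21.2% of all genes tested called higher) and all 53 rose in wild type (23.2%). Their median log2 FC was 0.77 in *nrt1.13* and 0.91 in wild type, while the median over all genes tested was -0.05 and -0.05. By the criteria of the study 18 genes were higher in *nrt1.13* (2.00% of all genes tested) and 31 in wild type (2.80%). For all 53 genes the plants of 25 days were above those of 16 days without overlap in both genotypes, as were 21.2% and 25.2% of all genes tested in *nrt1.13* and wild type. At 2 mM, 12 genes rose in *nrt1.13* (3.82% of all genes tested), 41 did not pass, and the median log2 FC was 0.13, with 0 by the criteria of the study (0.324%). In wild type at 2 mM limma called 0 genes, with 5 at an unadjusted *P* under 0.05, edgeR called 1 and DESeq2 2, and the median log2 FC was 0.01 (2.46% of all genes tested called higher). The 12 calls in *nrt1.13* depended on single plants. They came to 0 without replicate 3 and 2 without replicate 1 of the 16-day plants, and to 1 without replicate 1 and 2 without replicate 2 of the 25-day plants. A direct comparison of the genotypes in the day effect at 2 mM, also chosen after seeing the data, passed for 0 of the 53 genes by limma, edgeR and DESeq2, with 5 at an unadjusted *P* under 0.05, and limma called 0% of all genes tested higher and 0% lower.

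Whether the nitrate effect changed between the days was tested directly. For all 53 genes the difference of 0.2 against 2 mM was higher at 25 than at 16 days, averaged over both genotypes (21.7% of all genes tested called higher). The median of this interaction was 0.75 on the log2 scale, against -0.02 over all genes tested, and 16 genes also met an FC of 1.8 (1.20% of all genes tested). The interaction ran from 0.51 ± 0.09 for *AT1G52300* and 0.54 ± 0.07 for *RPS15A* to 1.19 ± 0.06 for *AT3G09200* and 1.79 ± 0.13 for *AT2G40010*. In the day average all 53 genes were called higher at 25 days (25.3% of all genes tested), with a median of 0.46, and 1 met an FC of 1.8 (0.218%). A difference between *nrt1.13* and wild type in the interaction, a comparison chosen after seeing the data, was called by limma for 0 of the 53 genes, by edgeR for 0 and by DESeq2 for 0, with 23 at an unadjusted *P* under 0.05 and a median of -0.27, where 0% of all genes tested were called.

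The genes without values of their own below lay between these ends. Each is given here with its protein family and its interaction on the log2 scale, the difference of the nitrate effect at 25 days from that at 16 days. Of the large subunit, *AT3G09630* (L4, 1.04), *AT5G02870* (L4, 0.99), *AT5G27850* (L18e, 0.95), *BBC1* (L13e, 0.92), *AT1G70600* (L18e/L15 superfamily, 0.91), *AT2G19730* (L28e, 0.89), *AT1G67430* (L17e, 0.83), *RPL10A* (L10, 0.82), *AT4G16720* (L15e, 0.78) and *AT2G37190* (L11, 0.77) had the larger values. The smaller values of the large subunit were those of *AT2G43460* (L38e, 0.75), *AT2G01250* (L7, 0.74), *EMB2296* (L2, 0.73), *AT3G49910* (L26, 0.71), *AT2G34480* (L18ae, 0.65), *RPL36aB* (L44e, 0.63), *AT1G33120* (L6 family, 0.59), *RPL24B* (L24, 0.59) and *AT1G01100* (acidic 60S, 0.57). Among small subunit genes, *EMB1080* (S17 family, 0.94), *AT3G02080* (S19e, 0.85), *AT2G41840* (S5 family, 0.79), *AT2G31610* (S3, 0.75), *AT5G15200* (S4/S9, 0.71), *RPS18A* (S18, 0.68), *AT3G53890* (S21e, 0.68), *AT2G36160* (S11 family, 0.66) and *AT2G21580* (S25, 0.64) were the higher ones. The lower ones were *RPS13A* (S13, 0.64), *AT3G04920* (S24e, 0.63), *RPS10B* (S10e, 0.61), *AT2G17360* (S4e, 0.60), *AT3G45030* (S10p/S20e, 0.59), *AT1G48830* (S7e, 0.59) and *RPS15A* (S15A, 0.54). Standard errors of these genes ran between 0.05 and 0.09, so the order of neighbours is not resolved, and the adjusted *P* of limma was at most 1.45e-06.

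**Figure D3:**
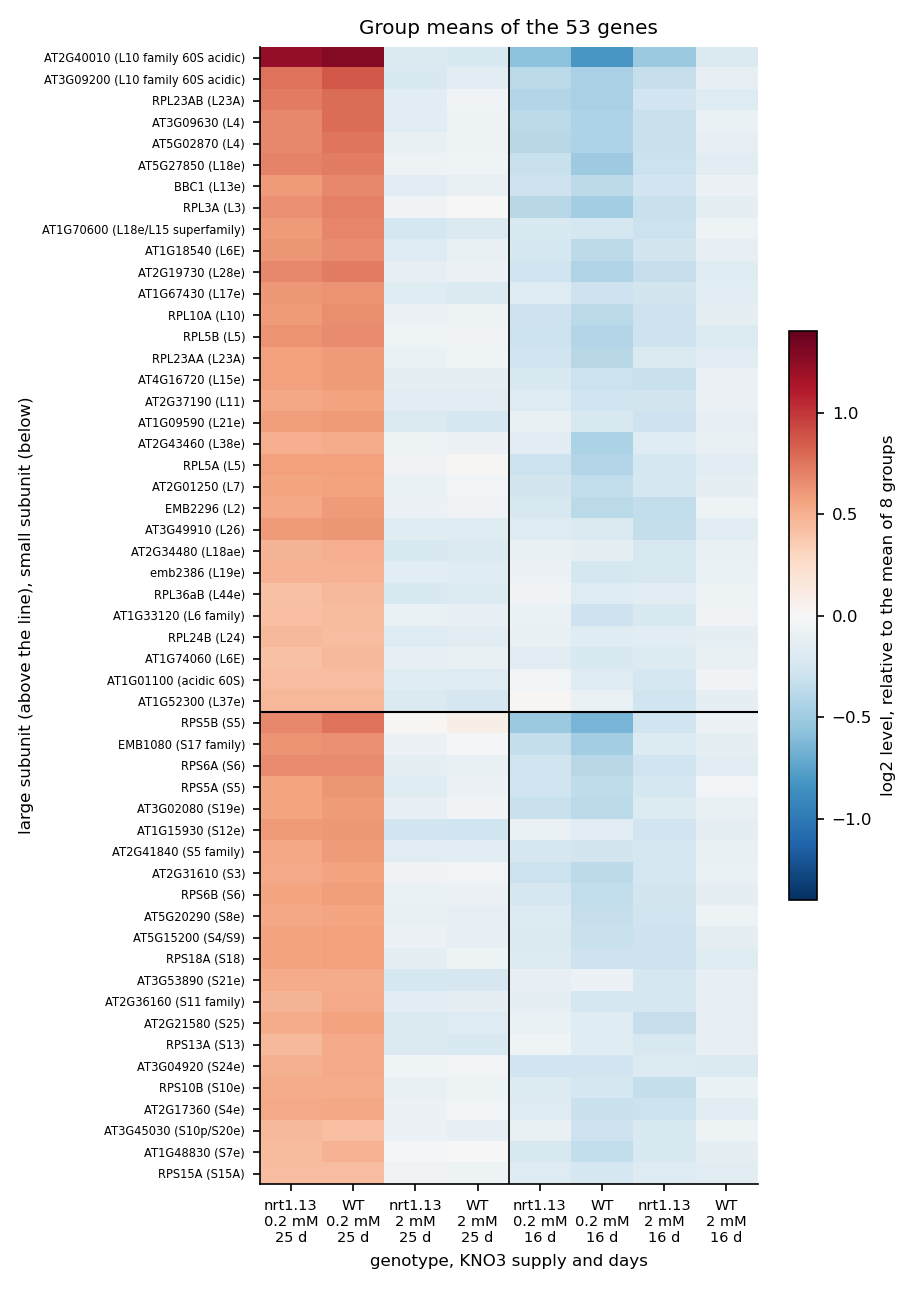
Log2 of the group mean CPM of each of the 53 genes, relative to the gene's mean over the 8 groups (colour), with large subunit genes above the line and small subunit genes below it, ordered within each by the change of the nitrate effect between the days. The 2 columns at 0.2 mM and 25 days are the highest of each row.

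No gene of the 53 was called between *nrt1.13* and wild type in any of the 4 conditions or in their average by limma or edgeR, and DESeq2 called 2 lower in *nrt1.13* at 2 mM and 16 days. Limma called 0.146% of all genes tested higher and 0.113% lower for 25-day plants at 0.2 mM, 0.0199% and 0.0662% for those at 2 mM, 0.0794% and 0.0530% for 16-day plants at 0.2 mM, 0.00662% and 0.0662% for those at 2 mM, and 1.02% and 0.682% in the average. At 25 days the 53 genes lay close together, with median log2 FC of -0.03 at 0.2 mM and -0.02 at 2 mM, and 0 of them had an unadjusted *P* under 0.05 in either supply. The log2 FC of single genes stayed between -0.11 and 0.03 at 0.2 mM and between -0.11 and 0.04 at 2 mM. At 16 days the medians were 0.11 at 0.2 mM, with 10 genes at an unadjusted *P* under 0.05, and -0.14 at 2 mM, with 25. At 2 mM and 16 days the 3 *nrt1.13* plants were all below the 3 wild-type plants for 22 of the 53 genes (7.92% of all genes tested), and at 0.2 mM and 16 days all above them for 5 (6.33%). The interactions of genotype with nitrate and with day, averaged over the other factor, were called for 0 of the 53 genes by limma, edgeR and DESeq2, with 10 and 0 at an unadjusted *P* under 0.05. Of all genes tested, limma called 0% higher and 0% lower in the interaction with nitrate, and 0.0132% and 0.0662% in that with day. The genotype difference in the nitrate effect at 25 days, a comparison added after seeing the data, was called for 0 by the same tools, with 0 at an unadjusted *P* under 0.05 and a median of -0.02, where limma called 0% of all genes tested higher and 0% lower.

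Genes of both subunits were called at 25 days. There the summed level of the 31 large subunit genes was 20946, 21882 and 23284 CPM in *nrt1.13* and 23198, 21386 and 23414 CPM in wild type at 0.2 mM, against 13912, 13059.9 and 13218 CPM in *nrt1.13* and 13171, 14038 and 13655 CPM in wild type at 2 mM. The 22 small subunit genes summed at 25 days to 10018, 10518 and 11273 CPM in *nrt1.13* and 10988, 10287 and 11137 CPM in wild type at 0.2 mM, against 6909, 6561 and 6679 CPM in *nrt1.13* and 6582, 7002 and 6766 CPM in wild type at 2 mM. The median change of the nitrate effect between the days was 0.78 for the large and 0.70 for the small subunit. In wild type at 16 days 16 of the 31 large subunit genes and 8 of the 22 small subunit genes fell at 0.2 mM. Mean levels spanned 18.2 to 1083 CPM with a median of 410.4. Per kilobase of the longest annotated transcript, the level of *AT2G40010* was 12.3 CPM, that of the next lowest gene 123 and that of the highest 970.0. The 3 plants of a group differed little, with a median coefficient of variation of 5.11% over the 53 genes and 8 groups.

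Among the 5 most abundant genes, the highest was the S8e gene *AT5G20290*. At 25 days, *AT5G20290* had 1401, 1541 and 1656 CPM in *nrt1.13* and 1576, 1454 and 1595 CPM in wild type at 0.2 mM, against 1015, 938 and 985 CPM in *nrt1.13* and 945, 1015 and 957 CPM in wild type at 2 mM. At 16 days, *AT5G20290* had 939, 905 and 925 CPM in *nrt1.13* and 809.9, 800.1 and 922 CPM in wild type at 0.2 mM, against 878, 893 and 844 CPM in *nrt1.13* and 947, 1075 and 988 CPM in wild type at 2 mM. All 6 plants at 25 days and 0.2 mM were above the 18 others. Next was *emb2386*, the gene of the large subunit protein L19e, whose name comes from embryo-defective mutants. At 25 days, *emb2386* had 1273, 1426 and 1617 CPM in *nrt1.13* and 1442, 1344 and 1530.5 CPM in wild type at 0.2 mM, against 964, 874 and 931.6 CPM in *nrt1.13* and 917, 903 and 911 CPM in wild type at 2 mM. At 16 days, *emb2386* had 969.9, 931.9 and 1006 CPM in *nrt1.13* and 832, 817 and 943 CPM in wild type at 0.2 mM, against 895, 882 and 852 CPM in *nrt1.13* and 907, 1005 and 983 CPM in wild type at 2 mM. The wild-type plants at 16 days overlapped between the supplies. *RPL3A* encodes L3, a large protein that reaches towards the centre where peptide bonds form. At 25 days, *RPL3A* had 1419, 1440.0 and 1297 CPM in *nrt1.13* and 1555, 1368 and 1444 CPM in wild type at 0.2 mM, against 911, 851 and 824 CPM in *nrt1.13* and 879.5, 931 and 868 CPM in wild type at 2 mM. At 16 days, *RPL3A* had 710.5, 725 and 607 CPM in *nrt1.13* and 656, 527 and 723 CPM in wild type at 0.2 mM, against 703, 724 and 726 CPM in *nrt1.13* and 778, 881 and 790.0 CPM in wild type at 2 mM. It was also among the genes with the largest day difference, and its log2 FC of 25 against 16 days averaged over the 4 conditions was 0.66 ± 0.04 (limma, adjusted *P* = 2.16e-12). At 25 days the log2 FC of 0.2 against 2 mM was 0.64 ± 0.07 in *nrt1.13* and 0.66 ± 0.07 in wild type for *AT5G20290*, 0.63 ± 0.08 and 0.66 ± 0.08 for *emb2386*, and 0.68 ± 0.09 and 0.70 ± 0.09 for *RPL3A* (limma, adjusted *P* of at most 7.50e-07).

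For 7 pairs of the 53 genes the annotation gives the same ribosomal protein, and the ratio of the 2 copies within a plant asks whether they responded alike. Since it is taken within a plant, the ratio does not depend on the scaling of the libraries, apart from the small pseudocount. A two-sided exact permutation test, with plants permuted within the 4 combinations of the other factors, was run for nitrate, day and genotype in each pair, and *P* was adjusted over these 21 tests. The ratio of 6 pairs shifted with day or nitrate, and that of 0 of the 7 pairs shifted with genotype (lowest adjusted *P* = 0.130). The 2 genes of protein L4, which lines the exit tunnel for the new peptide, passed in none of their 3 tests.

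The S5 pair showed the clearest shift. S5 belongs to the head of the small subunit, and *RPS5A* is known from studies in Arabidopsis for its activity in dividing cells. At 25 days, *RPS5A* had 613, 611 and 607 CPM in *nrt1.13* and 641, 626 and 646 CPM in wild type at 0.2 mM, against 384, 365 and 360.4 CPM in *nrt1.13* and 388, 405 and 387 CPM in wild type at 2 mM. At 16 days, *RPS5A* had 336, 339 and 353 CPM in *nrt1.13* and 311, 325 and 344 CPM in wild type at 0.2 mM, against 349.9, 359 and 342 CPM in *nrt1.13* and 401, 433 and 382 CPM in wild type at 2 mM. *RPS5A* was thus higher at 25 days and 0.2 mM than in any other group in both genotypes. At 25 days, *RPS5B* had 268, 268 and 260.2 CPM in *nrt1.13* and 301, 271 and 278 CPM in wild type at 0.2 mM, against 173, 174 and 165 CPM in *nrt1.13* and 158, 190.0 and 184 CPM in wild type at 2 mM. At 16 days, *RPS5B* had 121, 121 and 109.5 CPM in *nrt1.13* and 111, 91.1 and 117 CPM in wild type at 0.2 mM, against 133, 142 and 138 CPM in *nrt1.13* and 157, 178 and 138 CPM in wild type at 2 mM. *RPS5B* had the steeper day difference, with an averaged log2 FC of 0.77 ± 0.04 against 0.46 ± 0.03 for *RPS5A* (limma, adjusted *P* = 6.98e-14 and 1.59e-13). The log2 ratio of *RPS5A* to *RPS5B* at 25 days was 1.20 ± 0.02 in *nrt1.13* and 1.17 ± 0.07 in wild type at 0.2 mM, against 1.12 ± 0.04 and 1.16 ± 0.12 in the same genotypes at 2 mM (SD, n = 3 each). At 16 days it was 1.55 ± 0.12 in *nrt1.13* and 1.62 ± 0.18 in wild type at 0.2 mM, against 1.35 ± 0.04 and 1.37 ± 0.10 at 2 mM. The ratio differed by -0.31 between 25 and 16 days, in the same direction in 4 of 4 combinations (exact permutation test, adjusted *P* = 5.25e-04), and by 0.14 between 0.2 and 2 mM, likewise in 4 of 4 (adjusted *P* = 0.00929).

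Averaged over the 4 combinations, the log2 ratio of *AT3G09200* to *AT2G40010*, the pair of acidic L10 family genes, differed by -0.42 between 25 and 16 days (exact permutation test, adjusted *P* = 0.00306). The rarer copy thus gained relative to the abundant one in uniquely mapped reads, and its count is uncertain. At 25 days the ratio was 5.34 ± 0.08 in *nrt1.13* and 5.39 ± 0.10 in wild type at 0.2 mM, against 5.80 ± 0.12 and 5.87 ± 0.19 in the same genotypes at 2 mM. At 16 days it was 6.01 ± 0.05 and 6.17 ± 0.21 in these genotypes at 0.2 mM, against 6.01 ± 0.14 and 5.91 ± 0.18 at 2 mM. At 2 mM the plants overlapped between the days in both genotypes. The difference between the supplies was -0.17 and did not pass (exact permutation test, adjusted *P* = 0.138). In the L23A pair, whose protein sits beside the exit of the peptide tunnel, the averaged ratio of *RPL23AA* to *RPL23AB* differed by -0.14 between the days (exact permutation test, adjusted *P* = 0.00989). At 0.2 mM this ratio was 1.74 ± 0.16 in *nrt1.13* and 1.70 ± 0.07 in wild type at 25 days, against 2.03 ± 0.03 and 1.955 ± 0.05 at 16 days. At 2 mM the days overlapped, with 1.95 ± 0.05 in *nrt1.13* and 1.88 ± 0.07 in wild type at 25 days, against 1.96 ± 0.10 and 1.90 ± 0.05 at 16 days. At 25 days, *RPL23AA* had 656, 628 and 648 CPM in *nrt1.13* and 691, 619 and 654 CPM in wild type at 0.2 mM, against 413, 414 and 385 CPM in *nrt1.13* and 396, 427 and 424 CPM in wild type at 2 mM. At 16 days, *RPL23AA* had 375, 358 and 339 CPM in *nrt1.13* and 319, 299 and 375 CPM in wild type at 0.2 mM, against 372, 392 and 365 CPM in *nrt1.13* and 377, 409 and 372 CPM in wild type at 2 mM. At 25 days, *RPL23AB* had 220.4, 185 and 175 CPM in *nrt1.13* and 218, 195 and 191 CPM in wild type at 0.2 mM, against 103, 108 and 103 CPM in *nrt1.13* and 101, 119 and 119 CPM in wild type at 2 mM. Both copies were highest at 25 days and 0.2 mM in either genotype. At 16 days, *RPL23AB* had 91.6, 89.5 and 81.8 CPM in *nrt1.13* and 84.6, 77.9 and 93.0 CPM in wild type at 0.2 mM, against 91.3, 109 and 90.4 CPM in *nrt1.13* and 97.4, 113 and 99.9 CPM in wild type at 2 mM. The averaged day difference of *RPL23AB* was 0.65 ± 0.04 (limma, adjusted *P* = 2.78e-12) against 0.51 ± 0.03 for *RPL23AA*.

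The L6E pair shifted with day as well. At 25 days, *AT1G74060* had 248, 271 and 279 CPM in *nrt1.13* and 277, 263 and 282 CPM in wild type at 0.2 mM, against 193, 181 and 181 CPM in *nrt1.13* and 184, 185 and 189.6 CPM in wild type at 2 mM. At 16 days, *AT1G74060* had 184, 175 and 181 CPM in *nrt1.13* and 166, 166 and 183 CPM in wild type at 0.2 mM, against 176, 179.8 and 169 CPM in *nrt1.13* and 184, 193 and 182 CPM in wild type at 2 mM. At 25 days, *AT1G18540* had 658, 649 and 693 CPM in *nrt1.13* and 707, 647 and 699.9 CPM in wild type at 0.2 mM, against 404, 383 and 362 CPM in *nrt1.13* and 391, 411 and 407 CPM in wild type at 2 mM. The second gene is the more abundant, and the groups at 25 days did not overlap between the supplies in either gene. At 16 days, *AT1G18540* had 383, 347 and 364 CPM in *nrt1.13* and 329, 311 and 372 CPM in wild type at 0.2 mM, against 349.5, 385 and 351 CPM in *nrt1.13* and 379.8, 424 and 394 CPM in wild type at 2 mM. Averaged over the 4 combinations, their log2 ratio was lower by 0.17 at 25 than at 16 days (exact permutation test, adjusted *P* = 0.00929). At 2 mM it was nearly the same on both days, at -1.048 against -1.047 in *nrt1.13* and -1.112 against -1.098 in wild type. It was -1.33 ± 0.08 in *nrt1.13* and -1.32 ± 0.03 in wild type at 25 days and 0.2 mM, against -1.05 ± 0.05 and -1.11 ± 0.03 in the same genotypes at 2 mM, and between -1.10 and -0.97 in the 4 groups of 16 days. Of the transcript stretches of 75 bases, 32.7% of those of *AT1G74060* and 37.03% of those of *AT1G18540* occur elsewhere in the genome, so reads of near-identical copies were left out by unique mapping.

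The shifts of the other pairs were small. L5 binds the 5S ribosomal RNA and carries it into the large subunit. At 25 days, *RPL5A* had 1103, 1053 and 1064 CPM in *nrt1.13* and 1132, 1030.1 and 1057 CPM in wild type at 0.2 mM, against 725, 712 and 667 CPM in *nrt1.13* and 687, 758 and 741 CPM in wild type at 2 mM. At 16 days, *RPL5A* had 607, 574 and 578 CPM in *nrt1.13* and 541, 489 and 608 CPM in wild type at 0.2 mM, against 597, 638 and 591 CPM in *nrt1.13* and 635, 712 and 612 CPM in wild type at 2 mM. At 25 days, *RPL5B* had 922, 919 and 945 CPM in *nrt1.13* and 982, 893 and 967 CPM in wild type at 0.2 mM, against 593, 572 and 555 CPM in *nrt1.13* and 553, 614 and 571 CPM in wild type at 2 mM. Both genes were highest in the plants of 25 days and 0.2 mM. At 16 days, *RPL5B* had 506, 487 and 466 CPM in *nrt1.13* and 439, 425 and 492 CPM in wild type at 0.2 mM, against 476, 524 and 469.5 CPM in *nrt1.13* and 500.5, 574 and 503 CPM in wild type at 2 mM. The ratio of *RPL5A* to *RPL5B* was lower by 0.08 on the log2 scale at 0.2 than at 2 mM, in 4 of 4 combinations (exact permutation test, adjusted *P* = 0.00306). S6, the small subunit protein phosphorylated by S6 kinase, has 2 genes of nearly equal level. At 25 days, *RPS6A* had 804, 861 and 929 CPM in *nrt1.13* and 901, 811 and 897 CPM in wild type at 0.2 mM, against 527, 486 and 494 CPM in *nrt1.13* and 500.3, 531 and 496 CPM in wild type at 2 mM. At 16 days, *RPS6A* had 469.6, 449 and 441 CPM in *nrt1.13* and 405, 388 and 468 CPM in wild type at 0.2 mM, against 449.9, 479 and 428 CPM in *nrt1.13* and 457, 525 and 492 CPM in wild type at 2 mM. At 25 days, *RPS6B* had 733, 791 and 820.0 CPM in *nrt1.13* and 828, 760.3 and 824 CPM in wild type at 0.2 mM, against 513, 490.1 and 497 CPM in *nrt1.13* and 497, 518 and 503 CPM in wild type at 2 mM. Both S6 genes separated the supplies at 25 days in both genotypes. At 16 days, *RPS6B* had 458, 448 and 461 CPM in *nrt1.13* and 412, 383 and 462 CPM in wild type at 0.2 mM, against 442, 457 and 443 CPM in *nrt1.13* and 473, 519 and 470.2 CPM in wild type at 2 mM. Their log2 ratio was 0.14 ± 0.03 in *nrt1.13* and 0.11 ± 0.02 in wild type at 25 days and 0.2 mM, and its group means lay between -0.01 and 0.02 in the other 6 groups. Averaged over the 4 combinations it differed by 0.06 between 25 and 16 days, and was higher at 25 days at 0.2 mM in both genotypes and at 2 mM in neither (exact permutation test, adjusted *P* = 0.0345).

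**Figure D4:**
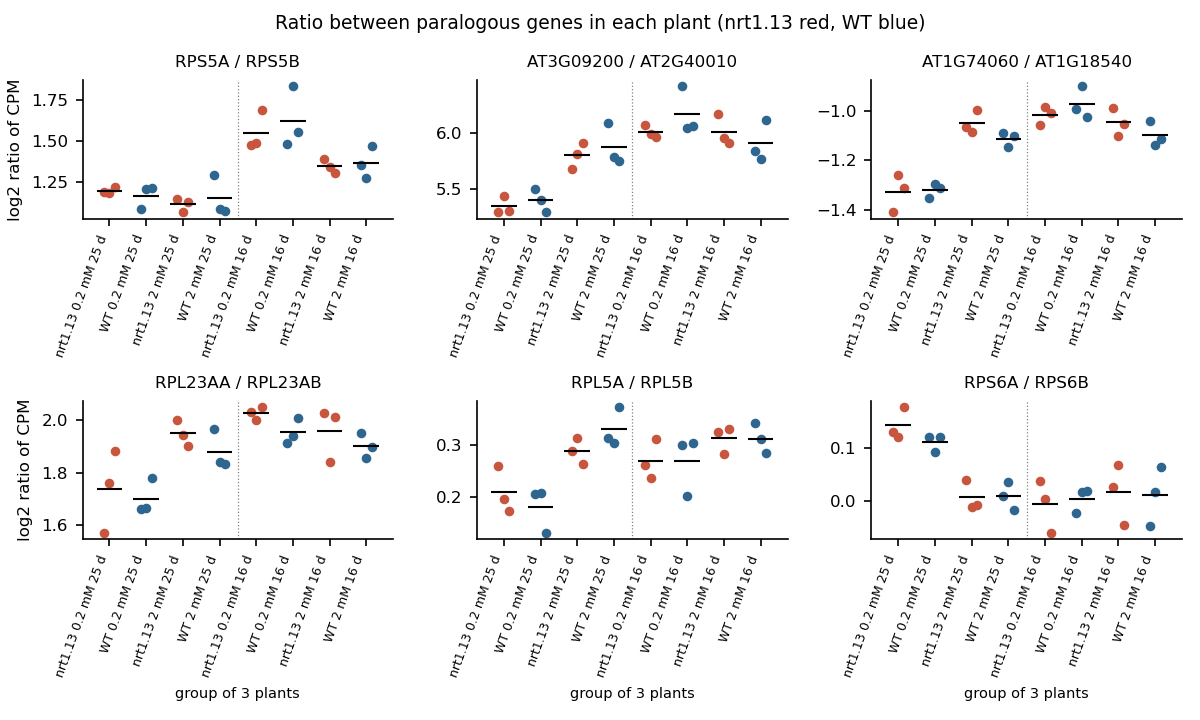
Log2 ratio of CPM between the 2 genes of a pair in each plant (points) and the mean of a group (line), for the 6 pairs whose ratio shifted with day or nitrate. For S5 the plants of 25 days lie between 1.07 and 1.298 and those of 16 days between 1.28 and 1.83, and for S6 the 6 plants at 0.2 mM and 25 days lie above the others.

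Most other genes of the cytosolic ribosome were called in the same comparisons. Of 152 further genes that the annotation describes as ribosomal proteins without a plastid or mitochondrial location, 137 were tested. At 25 days 136 of them rose at 0.2 mM in *nrt1.13* and 137 in wild type, with medians of 0.66 and 0.69. At 16 days 0 rose and 38 fell at 0.2 mM in wild type, and 1 rose and 2 fell in *nrt1.13*. The nitrate effect changed between the days for 134 of the 137, with a median of 0.74, against 0.75 for the 53 genes. In the nitrate average the highest of them were *AT3G08520* (0.54 ± 0.07 log2), *AT1G23410* (0.49 ± 0.07) and *AT3G06680* (0.48 ± 0.06). In the day average *AT5G39850* (0.80 ± 0.05), *AT3G18740* (0.75 ± 0.04, symbol *RLK902* in the annotation) and *AT3G57490* (0.73 ± 0.05) led upward. The genes that the annotation gives as the nearest copy of a member, 40 outside the 53, were called in the interaction in 40 of 40 cases, with a median of 0.76.

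Plastid and mitochondrial ribosomal proteins of the nucleus, 42 tested of 47, had smaller medians. At 25 days 24 rose and 2 fell at 0.2 mM in *nrt1.13*, and 19 rose and 1 fell in wild type, with medians of 0.18 and 0.14. Their summed level at 25 days was 13694 to 15082 CPM in *nrt1.13* and 13975 to 14344 CPM in wild type at 0.2 mM, against 12848 to 13078 CPM in *nrt1.13* and 12548 to 13358 CPM in wild type at 2 mM. In the nitrate average *AT1G26880* (0.37 ± 0.04 log2), *RFC3* (0.28 ± 0.03) and *AT1G70190* (0.24 ± 0.05) led upward, and *PSRP3/2* (-0.16 ± 0.06) and *AT3G01170* (-0.15 ± 0.05) fell. In the day average *RPL10B* (0.43 ± 0.05), *AT2G20060* (0.40 ± 0.05) and *AT1G26880* (0.39 ± 0.04) led upward, and *AT3G06180* (-0.46 ± 0.07), *AT5G19025* (-0.35 ± 0.10) and *AT3G01170* (-0.32 ± 0.05) downward. *RPL10B* and *AT1G26880* carry names of cytosolic families and are in this list through the location notes of the annotation. A difference between the 53 genes and this list was not tested.

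Genes that build ribosomes or use them were taken from lists of 21 biogenesis factors, 24 translation factors and 9 genes of TOR and S6 kinase. Of the 20 biogenesis factors tested, 20 rose at 0.2 mM at 25 days in *nrt1.13* and 20 in wild type, with medians of 0.66 and 0.69, and the interaction of nitrate and day was called for 20 of 20 with a median of 0.81. At 16 days 0 of the 20 rose and 3 fell at 0.2 mM in wild type, and limma called 0 in *nrt1.13*. *FIB2*, a gene of fibrillarin, which methylates ribosomal RNA in the nucleolus, had 145, 133 and 128 CPM in *nrt1.13* and 165, 131 and 149.9 CPM in wild type at 25 days and 0.2 mM, against 58.7, 63.9 and 59.1 CPM in *nrt1.13* and 60.5, 68.2 and 65.8 CPM in wild type at 2 mM. Its nitrate average was 0.41 ± 0.06 and its day average 0.97 ± 0.06 on the log2 scale. *NOP56*, its partner in the nucleolar particle, (0.43 ± 0.05) and *AT3G03920* (0.40 ± 0.05) were the others named for the nitrate average, and *AT5G27120* (0.83 ± 0.06) and *YAO* (0.69 ± 0.07) for the day average. Of 23 translation factors tested, 19 rose and 1 fell at 0.2 mM at 25 days in *nrt1.13*, and 19 rose and 1 fell in wild type, with medians of 0.36 and 0.39. In the nitrate average *FBR12* (0.34 ± 0.04), *AT5G60390* (0.33 ± 0.03) and *PAB4*, a poly(A)-binding protein, (0.29 ± 0.03) led upward, and in the day average *AT5G12110* (0.69 ± 0.06), *PAB4* (0.63 ± 0.03) and *eEF-1Bb1* (0.57 ± 0.03). *ELF5A-3*, annotated like *FBR12* as a factor of the eIF5A kind, fell in both averages (-0.22 ± 0.05 and -0.37 ± 0.05).

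The list of TOR and S6 kinase also held other genes, such as *RAPTOR1*, *LST8-1*, *TAP46* and *TCP20*. Of its 9 genes, 2 rose and 1 fell at 0.2 mM at 25 days in *nrt1.13*, and 1 rose and 1 fell in wild type, with medians of 0.01 and -0.01. Over all genes tested, 19.1% in *nrt1.13* and 18.9% in wild type were called higher. *PK1*, the S6 kinase gene *AT3G08730*, rose in the nitrate average (0.30 ± 0.04 log2) and *LST8-1*, a partner of TOR, fell (-0.15 ± 0.04). In the day average *S6K2* (-0.32 ± 0.08), *PDK1* (-0.30 ± 0.03) and *LST8-1* (-0.22 ± 0.04) fell. The activity of TOR and S6 kinase cannot be read from their mRNA.

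Markers of dividing and young leaf tissue were measured beside the 53 genes, since such tissue is rich in ribosomes. All 16 were tested. At 25 days 3 of the 16 rose at 0.2 mM in *nrt1.13* and 2 in wild type, 0 fell, and the medians were 0.21 and 0.18. Over all genes tested 19.1% and 18.9% were called higher in the same genotypes. The summed level of the 16 markers at 25 days was 365, 383 and 430.4 CPM in *nrt1.13* and 394, 393 and 473 CPM in wild type at 0.2 mM, against 355, 335 and 340.1 CPM in *nrt1.13* and 377, 361 and 380.1 CPM in wild type at 2 mM. The plants at 0.2 mM were above those at 2 mM in both genotypes. At 16 days and 2 mM the sum was 406 to 412 CPM in *nrt1.13* and 388 to 419 CPM in wild type. The interaction of nitrate and day was called for 10 of the 16, with a median of 0.31 against 0.75 for the 53 genes. In the nitrate average *ANT* (0.14 ± 0.04 log2) and *HIS4* (0.12 ± 0.04) rose. In the day average *STM* (0.24 ± 0.09), *CYCB1;1* (0.22 ± 0.06) and *HIS4* (0.15 ± 0.04) led upward and *GRF1* (-0.29 ± 0.06), *CDC20.1* (-0.29 ± 0.07) and *CDKB1;2* (-0.25 ± 0.08) downward. Of the 9 leaf markers, 4 rose and 1 fell at 0.2 mM at 25 days in *nrt1.13*, with the same counts in wild type. In the nitrate average *RBCS2B* (0.27 ± 0.04), *RCA* (0.19 ± 0.05) and *RBCS1B* (0.15 ± 0.05) rose and *CAB3* (-0.48 ± 0.04) and *CAB1* (-0.17 ± 0.05) fell. In the day average *CAB2* (0.46 ± 0.05), *RCA* (0.45 ± 0.05) and *RBCS1B* (0.24 ± 0.05) led upward and *RBCS3B* (-0.32 ± 0.05), *CAB3* (-0.19 ± 0.04) and *RBCS1A* (-0.18 ± 0.06) downward. The part of cell composition in the level of the 53 genes was not tested.

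Sequence shared by the 53 genes was read from the promoters, from 250 bases before to 50 bases after the annotated start in TAIR10.1. Plant ribosomal protein genes are known for the telo box, written AAACCCTA, and for site II elements, of which TGGGCC and TGGGCT were searched, on both strands. A stretch TGGGCCCA counts for TGGGCC on both strands. The telo box was in 27 of the 53 promoters (50.94%), against 6.22% of 27443 nuclear protein-coding genes, and a site II element in 45 (84.91%), against 21.72%. Both kinds stood together in 24 (45.28% against 2.205%). Of the 15046 such genes that were also tested, 5.736% held the telo box, 28.55% a site II element and 2.791% both. The other cytosolic ribosomal protein genes held the telo box in 48.68% and a site II element in 75%, the biogenesis factors in 42.86% and 85.71%, and the organellar ribosomal protein genes in 12.77% and 42.55%. The following stretches show the motifs in genes whose values are given above, 5′ to 3′ in the sense of the gene, with the telo box in capitals in the first 4 and a site II element in the last 4, and with the reverse complement TAGGGTTT, GGCCCA or AGCCCA in capitals where the motif is on the other strand.
RPS5A (chr3:3779541-3779568, minus strand): attagagcccAAACCCTAaatttctcat
AT5G20290 (chr5:6853094-6853121, minus strand): gatgataaccTAGGGTTTatactcccta
RPL5B (chr5:15903272-15903299, plus strand): aagagaactcTAGGGTTTtgtcttataa
RPS6B (chr5:3260214-3260241, minus strand): ctttctcgcaAAACCCTAaaagctgagc
AT1G52300 (chr1:19476298-19476323, minus strand): ttaaggcccaTGGGCCtgacttatcg
RPS6A (chr4:15347783-15347808, minus strand): cgcagaaaacGGCCCAtataaatcca
AT3G09200 (chr3:2825242-2825267, minus strand): actggttaaaTGGGCCtaatttgtga
AT2G40010 (chr2:16710799-16710824, minus strand): aagagcttttAGCCCAataggaaaaa

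In *RPS5A* the telo box began at position -13 from the annotated start, and in *RPL5B* at position 3. *RPS5B*, the partner of *RPS5A*, held none of the 3 motifs in this window, nor did *AT1G09590*, *RPL23AA*, *AT3G53890* and *RPS13A*. Genes with and without a motif had similar values. The median interaction of nitrate and day was 0.74 in the 27 genes with a telo box and 0.78 in the 26 without it, 0.75 in the 45 with a site II element and 0.72 in the 8 without it, and 0.77 in the 5 with neither. These medians are descriptions without a test. A match of letters is a description and not a binding site, and no match says only that these letters are not in this window.

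**Figure D5:**
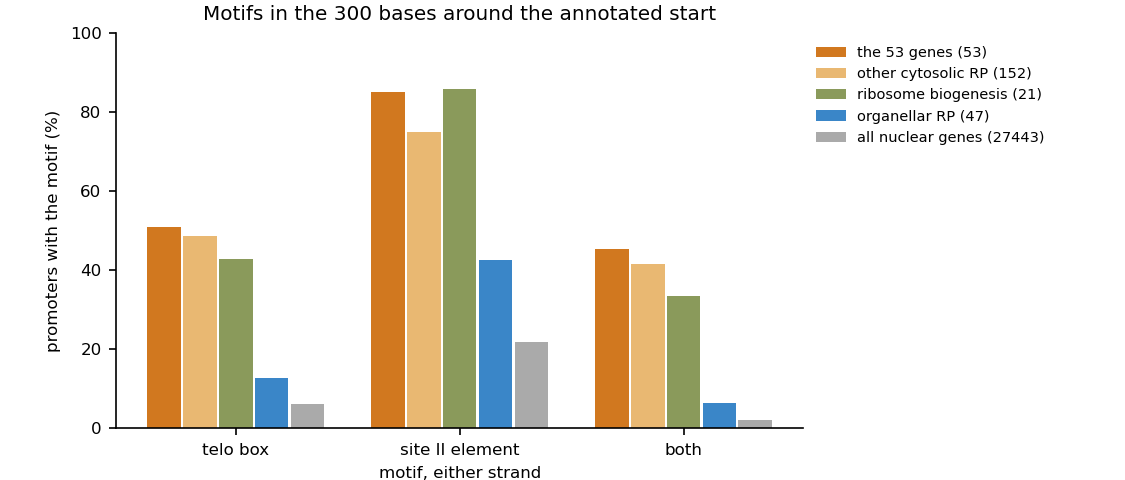
Share of promoters (%) with the telo box, a site II element or both on either strand, in the 53 genes, 152 other cytosolic ribosomal protein genes, 21 biogenesis factors, 47 organellar ribosomal protein genes and 27443 nuclear protein-coding genes. The site II share is 84.91% in the 53 genes and 21.72% over all nuclear genes.

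Because the authors kept reads that mapped to 1 place, genes with near-identical copies can lose reads. Of the 53 genes, 42 had no 75-base stretch of their transcript elsewhere in the genome, and 5 had over 10% of them elsewhere, namely *AT1G33120*, *AT2G40010*, *AT1G18540*, *AT1G74060* and *AT5G27850*. The median interaction of nitrate and day was 0.74 in the 42 genes without such stretches and 0.82 in the 11 with them. Whether counting used the strand is not given in the sources used here, so reads of overlapping genes may be shared, as for *AT3G09200*, whose neighbour *AT3G09210* overlaps it and had a mean of 116 CPM.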

How the data were processed

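Shoots of single plants were sequenced as 75-base paired-end reads from stranded libraries of polyadenylated RNA. The submitters' processing notes name bcl2fastq 2.17.1.14. Per the study's methods the authors mapped to TAIR10 in CLC Genomics Workbench 10, keeping reads that mapped to 1 place with at most 2 mismatches. The deposited signal is CPM for 28775 genes in 24 libraries, scaled by the authors. Dividing by the step between low values gave whole reads for 100% of values (tolerance 0.01 of a read), with 23608279 to 46155689 reads per library. CPM summed to 968394 to 1038371 per library, so a scaling beyond library size was applied, whose kind is not given in the sources used here.

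Group means of log2(CPM + 0.1) were fitted over all 24 libraries with limma 3.58.1 (R 4.3.3, moderated with trend), in 15108 genes with at least 2 CPM in every library. At this limit a gene had 45.5 to 90.8 reads. Fold changes understate the change of low genes. *P* was adjusted by Benjamini-Hochberg over all genes tested, with calls at 0.05. Because each library is 1 plant, *P* measures the spread between plants grown in these cultures. As alternatives, edgeR 4.0.16 and DESeq2 1.42.0 were run on the recovered reads, and pseudocount, filter, scaling, trend and libraries were varied. The fits were tested on simulated data. Same-numbered plants of different groups deviated together only weakly (mean correlation 0.019 over 84 pairs, 20 of them over 0.1). Plants of other numbers had a mean correlation of -0.009 over 168 pairs, 25 of them over 0.1. The numbers were not taken as pairing, and fits with the replicate number as a block are given below.

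The 53 genes and all lists were chosen with earlier results of these data known. Values of their own were given to the genes of up to 4 largest called changes a direction in the nitrate, day and genotype averages, the 5 of highest mean CPM, and the pairs whose ratio passed. In other lists up to 3 called genes a direction were named for the nitrate and day averages. A gene that this rule names is not reported here. Other genes named were chosen after their values were seen. Promoter sequence and coordinates were read from the RefSeq genome TAIR10.1, and all 53 genes were matched there by locus.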

Additional observations from a re-analysis of the deposited data

Results flagged for a closer look

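The effect of the nitrate supply on the ribosomal protein genes differed between the days, which was tested as the interaction of nitrate and day in limma over both genotypes. The difference of 0.2 against 2 mM KNO3 was higher at 25 than at 16 days for 53 of the 53 genes, and the median of the interaction was 0.75 on the log2 scale. Over all genes tested 21.7% were called higher in this comparison. Markers of dividing and young leaf tissue were called in it for 10 of 16 genes, with a median of 0.31, and their part in the result was not tested.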

How the results depend on the processing

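The counts of 53 called genes (nitrate at 25 days and day at 0.2 mM in each genotype, both averages, and nitrate by day) stayed at 53 in every alternative, with each library left out in turn included, except under the criteria of the study (FC of at least 1.8). By these, nitrate at 25 days gave 4 in *nrt1.13* and 4 in wild type, day at 0.2 mM 18 in *nrt1.13* and 31 in wild type, day at 2 mM in *nrt1.13* 0, nitrate at 16 days in wild type 0, the nitrate average 0, the day average 1 and nitrate by day 16. The 24 genes called lower at 0.2 mM in wild type at 16 days came to 15 without a filter on low values, 9 when the fit held no other libraries than those compared, and 3 to 30 when libraries were left out in turn. The 12 called in *nrt1.13* between the days at 2 mM came to 7 without a filter, 7 under quantile normalization, 19 by DESeq2, 6 in limma without trend, 25 with only the libraries of the comparison, and 0 to 14 without single libraries. In wild type at 2 mM the 0 became 1 under median-ratio scaling, CPM rescaled without the members, CPM over nuclear genes and edgeR, 2 by DESeq2, and 0 to 1 without single libraries. For nitrate at 16 days in *nrt1.13* the 0 called higher became 1 by DESeq2, 2 with only the libraries of the comparison (1 lower) and 0 to 2 without single libraries. In the genotype comparison at 2 mM and 16 days the 0 called lower became 2 by DESeq2 and 1 with only the libraries of the comparison, and at 0.2 mM and 16 days 0 to 1 were called higher without single libraries. DESeq2 called 2 in the genotype difference of the nitrate effect at 16 days.

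Quantile normalization lowered the median log2 FC to 0.59 in *nrt1.13* and 0.59 in wild type for nitrate at 25 days, 0.64 and 0.76 for day at 0.2 mM, 0.39 for the day average, 0.66 for nitrate by day and 0.17 for the genotype difference of the nitrate effect at 16 days. The genotype difference of nitrate by day was -0.20 under it and -0.20 with CPM over nuclear genes. No direction of a called value turned, and the values of the named genes kept their direction and their side of the threshold. With a pseudocount of 1 the ratios of the pairs kept their side of the threshold. With single plants left out, the ratios that had passed kept their direction, and no *P* was computed for them. The summed levels were not tested, and median-ratio scaling moved the mean of each group by less than its SD. The causes of these differences were not tested.

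With the replicate number as a block, 1 gene was called higher in *nrt1.13* at 16 days between the supplies, against 0 without the replicate block. With a replicate block within each day this was also 1, and the day comparison at 2 mM in *nrt1.13* gave 0, against 12. The replicate block changed no other count of called genes by over 1.5 times. The lowest value of the 53 genes in any plant was 7.47 CPM, above the filter of 2 CPM.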
